A study of Mus musculus with 16 samples.

Results

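Interleukin-33 (Il33) was followed across 16 single-colour Agilent expression arrays of mouse embryonic stem cells. All probes whose gene name or RefSeq entry in the array annotation belongs to Il33 were taken, and that was 1 of the 55681 non-control probes, so 1 gene of the 20972 with a named probe, printed as 1 spot per array at spot row 288 and spot column 55. Il33 was chosen by its measured levels: its level after Ptn_VP64 stood furthest above the other groups on these same arrays. Its Ptn_VP64 values are therefore a description, with no test, and nothing is supported with them.

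Interleukin-33 is a cytokine of the interleukin-1 family. Barrier epithelium, endothelium and fibroblasts keep it in the nucleus bound to chromatin, and damaged cells release it as an alarm signal. Outside the cell it binds ST2, encoded by Il1rl1, together with the accessory chain encoded by Il1rap. The receptor then signals through MyD88, IRAK kinases and TRAF6 to NF-kB and MAP kinases in mast cells, type 2 innate lymphoid cells and regulatory T cells, which answer with type 2 cytokines.

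The cells were the E14 line, grown in serum with LIF, the cytokine that holds embryonic stem cells undifferentiated. In every group, plasmids were delivered with Lipofectamine, cells were sorted on eGFP at 24 h, re-seeded, and harvested at 48 h. The EGFP group received the fluorescent protein alone. The other 3 groups received a TALE, that is, a DNA-binding protein built to order, here for Ptn, the gene of the secreted growth factor pleiotrophin. Ptn_VP64 carried VP64, a synthetic activator built from repeats of a viral VP16 motif. Ptn_DEL carried DEL, an acidic peptide known for decondensing chromatin. What Ptn_Delta carries is not in the labels, which also do not give the sequence that the TALE binds. Each group had 4 arrays, which the labels describe as 2 biological and 2 technical replicates without saying which is which. In bulk RNA of sorted cells, more cells with Il33 RNA and more Il33 RNA per cell cannot be told apart.

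A level is a spot's processed signal on the log2 scale, less the 75th percentile of its array, so 0 is the signal that 75% of spots do not exceed. The lowest such percentile was 209.3 (EGFP replicate 2) and the highest 1253 (Ptn_VP64 replicate 1), and 27.1 to 43.8% of spots were well above background by the scanner software's own call. Dim and bright patches covered 0.641 to 35.6% of an array, and these values are set beside Il33 below. Replicates 1 and 2 lay on slide 1 and replicates 3 and 4 on slide 2. Each construct always took the same column of the slide, so construct and slide column cannot be told apart. The ES cell markers matched the label, with 12 of 12 well above background on at least 3 arrays in every group. The targeted gene also followed its labels: Ptn read 3.10 ± 0.55 (SD, n = 4) in Ptn_VP64, -1.21 ± 0.39 in EGFP, -0.85 ± 1.52 in Ptn_DEL and 0.00 ± 0.91 in Ptn_Delta, with marked spots kept. Only 1 of these Ptn_VP64 arrays was unmarked for Ptn. Another Ptn probe read 3.36 ± 0.49, -1.46 ± 1.48, -1.83 ± 2.09 and -1.66 ± 2.75 in the same order, so Ptn_Delta was not above EGFP there.

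RefSeq lists a pair of start windows for Il33 on mouse chromosome 19 (GRCm38.p6, plus strand), with starts 20677 bases apart. They are shown because Il33 was high in the group whose TALE carried an activator, and each runs from 250 bases before a start to 50 bases after it. Capitals mark TATAAA, the core promoter element called the TATA box. The upstream window lies at chr19:29924863-29925162 and the downstream window at chr19:29945540-29945839.
Il33 upstream window: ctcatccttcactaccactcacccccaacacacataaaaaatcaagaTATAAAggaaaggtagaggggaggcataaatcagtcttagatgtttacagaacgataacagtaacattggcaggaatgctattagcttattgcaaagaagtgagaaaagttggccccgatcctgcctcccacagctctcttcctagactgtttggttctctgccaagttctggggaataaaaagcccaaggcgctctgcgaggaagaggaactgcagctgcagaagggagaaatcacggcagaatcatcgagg
Il33 downstream window: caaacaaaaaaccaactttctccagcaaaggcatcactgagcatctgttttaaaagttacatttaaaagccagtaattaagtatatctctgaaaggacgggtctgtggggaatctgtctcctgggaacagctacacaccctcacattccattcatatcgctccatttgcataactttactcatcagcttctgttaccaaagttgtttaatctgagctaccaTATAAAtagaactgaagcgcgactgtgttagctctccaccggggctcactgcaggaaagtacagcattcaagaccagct
The TATAAA letters begin 203 bases before the start in the upstream window and 29 bases before it in the downstream window. Both windows hold the letters on the printed strand, and 13.6% of 32851 such windows of all genes hold them on either strand. Searches on both strands for the AP-1 letters TGANTCA (in 7.81% of all windows), the STAT letters TTCNNNGAA (8.30%) and the GC-box letters GGGCGG (35.7%) found no match in either window. None of these motifs overlaps another. G and C made up 46.3% of the upstream and 42.3% of the downstream window, against a median of 52.7% over all windows, with 6 and 5 CG steps against a median of 7. The longest run of letters that each window shared with the 1 window of Ptn, on either strand, was 10 bases for the upstream and 8 bases for the downstream one. Of 32850 other windows, 24.6% and 95.3% shared a run with Ptn at least as long.

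Il33 was bright in Ptn_VP64 and dim everywhere else. In Ptn_VP64 its processed signal was 5858 in replicate 1, 1566 in replicate 2, 4182 in replicate 3 and 4467 in replicate 4. In EGFP it was 66.3, 17.4, 38.5 and 23.8 in the same replicate order. The lowest Ptn_VP64 spot was thus far brighter than any EGFP spot. Ptn_DEL gave 157.4, 114.5, 70.1 and 86.5, and Ptn_Delta gave 256.4, 121.7, 139.3 and 69.3. Before overall brightness of the arrays is taken into account, every spot of both groups exceeded the EGFP spots, and the groups overlapped one another.

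On the level scale Ptn_VP64 read 2.22, 1.49, 2.58 and 2.65. The 1.49 of replicate 2 came from a spot that the software marked as uneven, and it is left out of the mean unless stated. At these levels Il33 was brighter than 83.9 to 88.6% of the non-control spots of its array. EGFP read -3.37, -3.59, -4.29 and -4.57. The spots of EGFP replicates 1 and 3 stood at the lowest value those arrays report, which 29205 and 27081 spots shared. Ptn_DEL read -2.53, -2.97, -3.74 and -2.91, and Ptn_Delta read -1.67, -2.66, -2.39 and -3.05. All 4 Ptn_VP64 arrays lay above all 12 others.

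**Figure D1:**
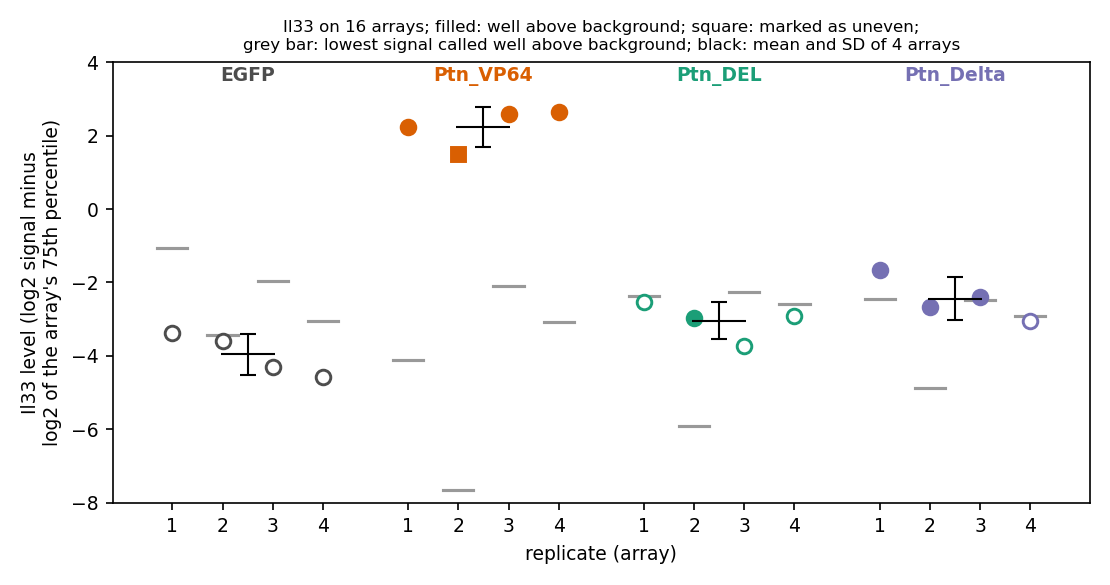
Level of the Il33 probe (log2 signal relative to its array's 75th percentile) on each of the 16 arrays by group, with filled symbols for spots well above background, a square for the marked spot, grey bars for the lowest signal called well above background on each array, and black marks for the mean and SD of 4 arrays. Ptn_VP64 runs from 1.49 to 2.65, and no array of another group exceeds -1.67.

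The Il33 spot was well above background on 4 of 4 arrays in Ptn_VP64, 3 of 4 in Ptn_Delta, 1 of 4 in Ptn_DEL and 0 of 4 in EGFP. It was saturated on none of the 16 arrays. Group means were 2.48 ± 0.23 (SD, n = 3) in Ptn_VP64, -2.44 ± 0.58 (SD, n = 4) in Ptn_Delta, -3.04 ± 0.51 (SD, n = 4) in Ptn_DEL and -3.96 ± 0.57 (SD, n = 4) in EGFP. In that order Ptn_VP64 was separate from Ptn_Delta, while Ptn_Delta overlapped Ptn_DEL and Ptn_DEL overlapped EGFP. With the marked spot kept, Ptn_VP64 averaged 2.23 ± 0.53 (n = 4).

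Because no EGFP array measured Il33 well above background, the fold over EGFP has only a bound, which depends on the limit taken. With the lowest level called well above background on each EGFP array as limit, the bound was 28.9-fold, or 24.3-fold with the marked spot kept. The 95th percentile of negative control spots was higher than that limit on every EGFP array (-1.41 to -0.92 against -3.42 to -1.05). Against those controls the bound would be smaller. Ptn_DEL was well above background on 1 array, replicate 2. Its level there, -2.97, lay under the 95th percentile of that array's negative controls, -1.32. The ratio of means over Ptn_DEL, 45.9-fold (38.6-fold with the marked spot), includes 3 dim spots. With each dim spot raised to the lowest level called well above background on its array, that ratio was 32.7-fold. Ptn_Delta was well above background on 3 arrays. Replicates 1 and 3 exceeded that percentile of their controls (-1.67 against -2.33 and -2.39 against -3.10), and replicate 2 did not (-2.66 against -1.01). The ratio of means over Ptn_Delta was 30.4-fold (25.6-fold). As differences in mean level these are 5.52 over Ptn_DEL and 4.93 over Ptn_Delta. The difference in mean level from EGFP, 6.44, includes EGFP spots below background and is no measure of the fold. The bound of 28.9-fold is 4.85 on the log2 scale. By slide the difference in mean level from EGFP was 5.71 on slide 1, with 1 unmarked Ptn_VP64 array, and 7.05 on slide 2. These 3 comparisons share the Ptn_VP64 arrays.

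As the selection fixed, Il33 belonged to the genes whose 4 Ptn_VP64 arrays all exceeded the 12 others, which were 41 of 12881 genes, 0.318%. The gap between its lowest Ptn_VP64 level and its highest level elsewhere was 3.16. Just behind came Nnmt, nicotinamide N-methyltransferase, with a gap of 3.07. Ptn itself followed with 1.62, then Nr2f2, the nuclear receptor COUP-TFII, with 1.41. All 4 Ptn_VP64 arrays exceeded all 4 EGFP arrays for 4.43% of genes, all 4 Ptn_DEL arrays for 1.27% and all 4 Ptn_Delta arrays for 1.25%.

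The other 3 groups were also compared with one another. Their means use no Ptn_VP64 array, but the choice of Il33 favoured low levels in all 3, so these fits are not independent of it and support nothing. Ptn_DEL minus EGFP was 0.92 ± 0.60 (SE, 4 arrays a group), with an adjusted p of 1 in limma. Ptn_Delta minus EGFP was 1.52 ± 0.60, with an adjusted p of 0.977 in limma. Ptn_DEL minus Ptn_Delta was -0.59 ± 0.60, with an adjusted p of 1 in limma. None of the 3 passed, while 0% of 12799 genes were called in any of these comparisons; at an unadjusted p under 0.05 the shares were 2.67, 4.02 and 0.656%. A p that misses the threshold does not show that the groups act alike. All 4 Ptn_Delta arrays lay above all 4 EGFP arrays for Il33, as they did for 3.92% of genes. After correction for the patches these groups overlapped, with Ptn_Delta replicate 4 at -3.25 and EGFP replicate 2 at -3.22. In the authors' deposited series values they also overlapped, with Ptn_Delta replicate 2 at 5.69 and EGFP replicate 4 at 5.80. Ptn_DEL overlapped EGFP, its lowest array at -3.74 lying under the highest EGFP array at -3.37, whereas 3.3% of genes had all 4 Ptn_DEL arrays above all 4 EGFP arrays. Ptn_DEL and Ptn_Delta also overlapped, and 0.349% of genes had all 4 Ptn_DEL arrays above all 4 Ptn_Delta arrays. EGFP has no measured level of Il33, so the fitted values of Ptn_DEL and Ptn_Delta over it depend on how dim spots are treated: they were 0.08 and 0.46 with normexp background correction and 1.38 and 1.74 in the authors' deposited series values.

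The surroundings of the spot were measured because these slides carry patches. The local shift, the median departure of strong spots in the surrounding 21 by 21 positions, differed from the array's own median by -0.28 to 0.50 over the 16 arrays and by -0.04 to 0.21 in Ptn_VP64. On none of the 16 arrays did it pass the limit of 1 log2 unit that defines a patch. Among 127 strong spots in that window, Ptn_VP64 minus EGFP had a median of 0.01, with its 5th and 95th percentiles at -0.59 and 0.70 and a highest value of 3.37. The same value for Il33, with its marked spot kept, was 6.19, which its selection as the gene with the widest gap fixed to be high. The local background around the Il33 spot was 36 to 56 on every array, against a raw median signal of 7734.5, 654, 4270 and 5570 in Ptn_VP64 and of 56 to 126 in EGFP. Raw signals of 24 adjacent spots reached 7586 to 22853 in Ptn_VP64 and 5131.5 to 23840 in the other groups, and the part of adjacent spots in the Il33 signal was not tested. After patch correction the unmarked Ptn_VP64 levels were 2.52, 2.51 and 2.67, a mean of 2.57 ± 0.09 (SD, n = 3).

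**Figure D2:**
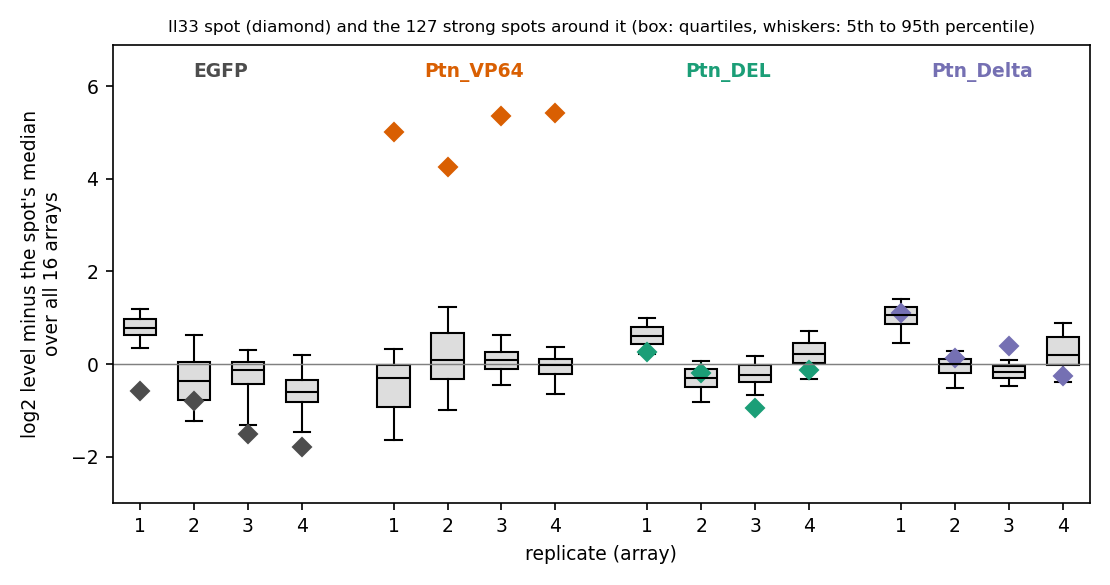
Departure of each spot from its own median over the 16 arrays (log2 level), for Il33 (diamonds) and for the 127 strong spots in the 21 by 21 window around it (boxes with quartiles, whiskers from the 5th to the 95th percentile), array by array. Box medians lie between -0.60 and 1.07, and Il33 lies between 4.27 and 5.43 in Ptn_VP64 and at 1.11 or below on the other arrays.

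Genes whose levels ran most like Il33 over the 16 arrays were found by Pearson correlation, marked spots kept, among 12880 other genes. The arrays share 2 slides and 4 groups, so each coefficient largely restates the step between Ptn_VP64 and the rest and is given as a description. It exceeded 0.9 for 5 genes and 0.8 for 31. Nnmt led with r = 0.96, and the same coefficient after patch correction was 0.96 over 14 arrays. Cish, a cytokine-induced SOCS-family inhibitor of STAT signalling, followed with 0.92. Upk3b, a uroplakin of mesothelium and urothelium, and Smarca2, a BAF chromatin remodelling ATPase, both had 0.91. Kazald1, a secreted Kazal-domain protein, and Nr2f2 had 0.90, and Pparg, the nuclear receptor of fat cell differentiation, and Samd5 had 0.89.

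Nnmt came closest to Il33 in form. It read 0.81, 1.45, 0.71 and 1.30 in Ptn_VP64 and -3.37, -3.56, -4.29 and -5.08 in EGFP, and it was well above background on 4 and 0 of those arrays. Its highest level elsewhere was -2.36, in Ptn_DEL. Its EGFP values of -3.37 and -4.29 are the lowest that replicates 1 and 3 report, so there the match with Il33 is a shared floor. Upk3b, Smarca2 and Samd5 stood at the same floor on those arrays. Cish differed in that it was well above background on at least 3 arrays of every group. Its mean was 2.08 ± 0.30 (SD, n = 4) in Ptn_VP64, -0.84 ± 0.34 in EGFP, 0.05 ± 0.23 in Ptn_DEL and -0.18 ± 0.73 in Ptn_Delta. The other 6 had Ptn_VP64 means between -1.93 (Smarca2) and -0.60 (Nr2f2), and all 6 were well above background on 4 of 4 Ptn_VP64 arrays. In EGFP, Smarca2, Nr2f2, Kazald1, Samd5 and Upk3b were well above background on 0 arrays and Pparg on 2. Kazald1 was well above background on 3 Ptn_DEL and 4 Ptn_Delta arrays and Pparg on 3 and 3. The rest of these 6 were on at most 1 array of either group. Levels of different probes are not comparable with one another.

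**Figure D3:**
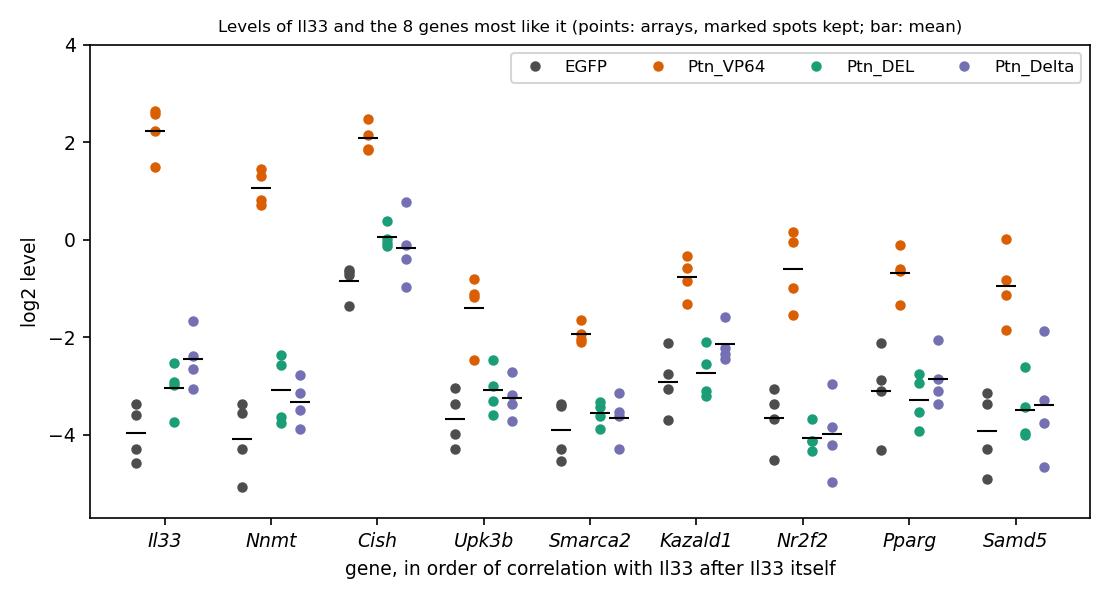
Level (log2 relative to the array's 75th percentile) of Il33 and of the 8 genes with the highest correlation with it, for each of the 16 arrays. Ptn_VP64 arrays are the high ones in every row, with Il33 at 1.49 to 2.65 and Cish, unlike the rest, also at a mean of 0.05 in Ptn_DEL.

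The genes that act with Il33 were read from 6 lists. Lists of IL-1 family ligands, receptors and decoys, the signal relay, NF-kB subunits and targets, type 2 cytokines, and alarmin release and cleavage held 103 genes, of which 99 had a probe and 52 passed the filter of being well above background on at least 4 of 16 arrays. Of those 52, limma called 0 in either direction between Ptn_VP64 and EGFP, as it called 0 of 12799 genes (0%), so the count says nothing particular about them, and 26 lay above 0 and 26 below. At an unadjusted p under 0.05, 3 of the 52 passed, against 3.86% of all genes. Against Ptn_DEL and against Ptn_Delta the lists also had 0 calls, as had all genes (0%), and 2 members each at an unadjusted p under 0.05, against 1.85 and 2.93% of all genes.

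Neither chain of the Il33 receptor was well above background on more than 1 array of a group. Il1rl1, the ST2 chain, was well above background on 0 EGFP, 0 Ptn_VP64, 1 Ptn_DEL and 0 Ptn_Delta arrays, and Il1rap, the shared accessory chain, on 1, 0, 0 and 0. In Ptn_VP64 the Il1rl1 level was -5.25, -3.47, -4.44 and -5.17. These are values of dim spots without an order, and the array sets only an upper limit on both transcripts. Of 11 receptors and decoys, 2 passed the filter. Il18bp, a secreted trap for interleukin-18, differed by -0.63 ± 0.74 (SE) between Ptn_VP64 and EGFP, and Sigirr, an inhibitory receptor of the family, by 0.28 ± 0.71 (-0.35 in the unaveraged fit after patch correction), each with an adjusted p of 1 in limma. Of 9 other ligands only 5 had a probe. Among those only Il1b, the fever cytokine interleukin-1 beta, passed, through 1 array in each group, and it differed by -0.89 ± 0.67.

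The relay below the receptor was present in these cells, with 17 of 18 genes past the filter. Of them 9 were above 0 and 8 below, with a median difference of 0.01, against a median of 0.07 over all genes, and a range of -1.61 to 0.98. The lowest was Irak3, a brake on IRAK signalling, at -1.61 ± 1.09 (SE). Irak1, a kinase of the receptor complex, gave -1.44 ± 1.04, Traf6, the ubiquitin ligase it hands on to, -1.23 ± 0.81, and Ikbkg, the NEMO scaffold of the IKK complex, -1.04 ± 0.90. Each value lies within 2 standard errors of 0. Array replicates 1 and 2 of Ptn_VP64 read -1.45 and -0.31 for Irak3 and replicates 3 and 4 read 2.08 and 2.27, so the slides disagreed. In the unaveraged fit after patch correction, Irak3 was at -0.38, Irak1 at -0.56 and Ikbkg at 0.21, so the first pair shrank more than 1.5-fold and Ikbkg turned, and Traf6 was not tested. Replicate 3 of Ptn_VP64 read -4.44 for Irak1 while the other 3 read 0.35 to 1.57.

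NF-kB subunits and targets gave the widest values among the lists. Of 29 genes 16 passed the filter, 9 above 0 and 7 below, with a median of 0.15. Csf1, the macrophage growth factor, read 1.19, -1.09, 1.05 and -0.50 in Ptn_VP64 and -1.82, -1.89, -3.27 and -4.80 in EGFP. Its groups did not overlap, as for 4.43% of genes in that direction, and its difference was 3.37 ± 1.15 (SE) with an adjusted p of 1 in limma. Tnfaip3, the A20 feedback inhibitor of NF-kB, differed by 2.28 ± 0.90, Ptgs2, the inducible cyclooxygenase, by 1.75 ± 0.69, and Ccl2, a monocyte chemokine, by 0.85 ± 0.65, all with an adjusted p of 1. The first 3 of these 4 were the list's members with an unadjusted p under 0.05. They made up 18.8% of its 16 genes tested, against 3.86% of all genes, and none of the other lists had such a member. Tnfaip3 had 2 marked EGFP spots, and with them kept the difference in means was 0.84. With 16 arrays unaveraged after patch correction, a fit whose p-values are too small because technical repeats count as replicates, 263 of 10777 genes were called higher (2.44%) and 92 lower (0.854%) between Ptn_VP64 and EGFP. None of the 46 list members tested there was among them, Csf1 having an adjusted p of 0.0645 in limma.

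Type 2 cytokines and their partners were mostly dark, with 4 of 16 past the filter and a median difference of -1.02. Chil3, a chitinase-like protein of alternatively activated macrophages, differed by -1.25 ± 0.74 (SE; -1.88 unaveraged after patch correction), Il2rg, the common cytokine receptor chain, by -1.26 ± 0.95, Il4 by -0.80 ± 0.63 and Crlf2, the TSLP receptor chain, by 0.26 ± 1.20. None passed in limma, where each adjusted p was 1. Chil3 was well above background on 1 EGFP and 0 Ptn_VP64 arrays, Il4 on 2 and 1, Il2rg on 2 and 2, and Crlf2 on 4 and 4. The differences of the first 3 and the list's median thus rest partly on dim spots. Alarmins and the proteins that release or cleave them had 12 of 20 past the filter, 6 above 0 and 6 below, with a median of 0.02. Hmgb1, a nuclear alarmin like Il33, differed by 1.75 ± 0.99, Casp8, an initiator caspase, by 1.54 ± 1.02 (0.54 unaveraged after patch correction) and the calpain Capn2 by 1.37 ± 1.00. Hmgb1 was marked on 3 EGFP arrays, so its EGFP value rests on 1 spot.

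**Figure D4:**
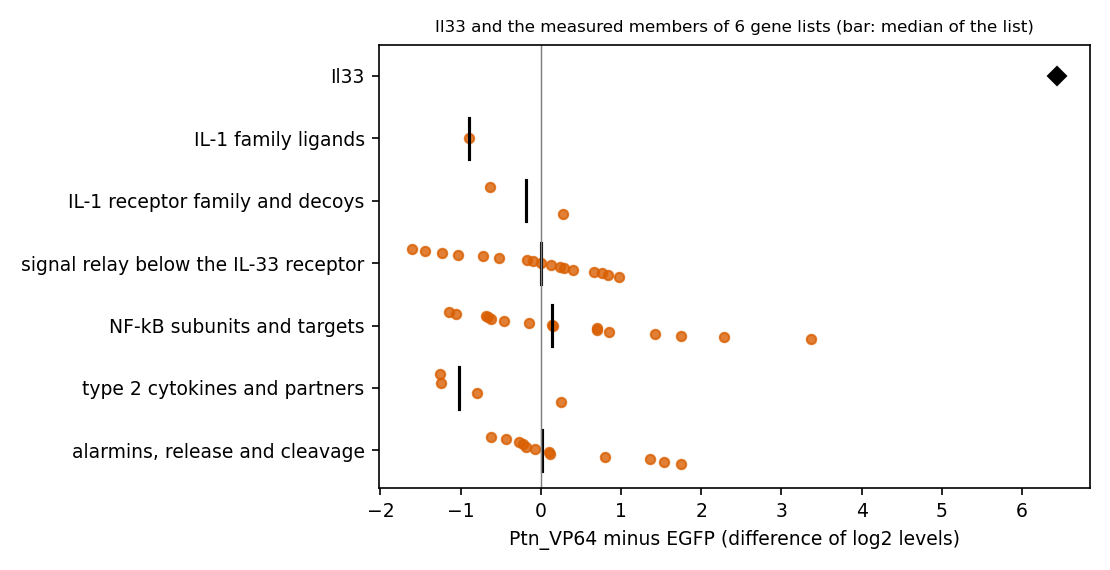
Difference in level between Ptn_VP64 and EGFP (log2) for Il33 and for the 52 genes of 6 gene lists around it that passed the background filter. Il33 lies at 6.44, which includes EGFP spots below background, and the listed genes lie between -1.61 and 3.37.

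The genes beside Il33 on the chromosome were compared to see whether the step extended along it. The order came from the RefSeq gene table, and of the 10 protein-coding genes on each side 13 of 20 passed the filter. Between Ptn_VP64 and EGFP 7 lay above 0 and 6 below, with a median of 0.20. Limma called 0 of them, as it called 0 of 12799 genes (0%), so that count says nothing particular about the neighbours. At an unadjusted p under 0.05, 2 of the 13 passed (15.4%), against 3.86% of all genes. The nearest gene before Il33, Ranbp6, a nuclear import receptor paralog, differed by -0.27 ± 0.72 (SE; 0.32 unaveraged after patch correction), and the next, 9930021J03Rik, by -0.84 ± 0.77. On the other side the nearest, Trpd52l3, did not pass the filter, and the 2 nearest measured were Uhrf2, a hemimethylated DNA reader and ubiquitin ligase, at 1.24 ± 0.95 and Gldc, the glycine decarboxylase of the glycine cleavage system, at -0.59 ± 1.44. All 4 had an adjusted p of 1.

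Dkk1, a secreted Wnt antagonist and the fifth gene after Il33, was named after its values were seen. It read 0.89, -0.05, 2.44 and 0.80 in Ptn_VP64 and -3.37, -2.90, -4.29 and 1.83 in EGFP. The -3.37 and -4.29 are the lowest values that EGFP replicates 1 and 3 report. Dkk1 was well above background on 1 EGFP array, so its differences from EGFP rest partly on dim spots and are no measure of the fold. The 1.83 and the -0.05 were marked spots. With them left out the difference was 5.13 ± 0.94 (SE), with an adjusted p of 0.574 in limma, and with them kept the difference in means was 3.20 and the groups overlapped. In the unaveraged fit after patch correction it was 4.65 ± 0.85 with an adjusted p of 0.0198, which made it the 1 gene called higher of 10 neighbours tested, against 2.44% of all genes. Ranbp6, 9930021J03Rik, Uhrf2 and Gldc, the measured genes nearest to Il33, each lay within 2 standard errors of 0.

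**Figure D5:**
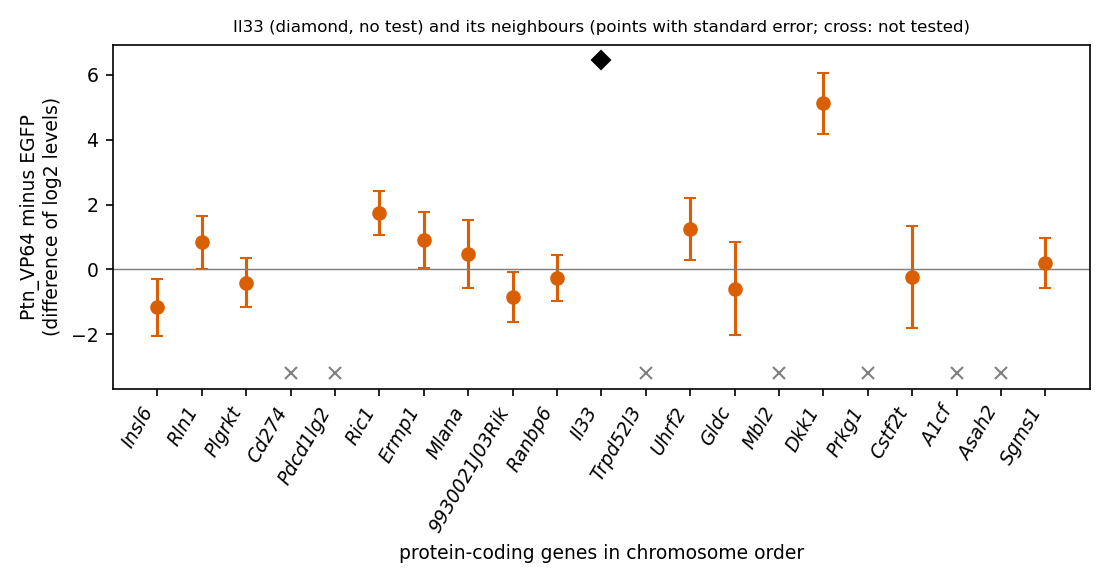
Difference in level between Ptn_VP64 and EGFP (log2, with standard error) for Il33 and the neighbouring protein-coding genes that passed the background filter, in chromosomal order, with a cross for neighbours not tested. Dkk1 at 5.13 is the one neighbour near the 6.44 of Il33, both values including EGFP spots at the floor. The 4 nearest measured genes lie between -0.84 and 1.24.

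Markers of cell types that carry Il33 in the body were read beside it. Summed over 10 surface epithelium markers, the log2 level was 6.82 to 7.67 in Ptn_VP64, above the 4.91 to 6.17 in EGFP, 5.61 to 6.35 in Ptn_DEL and 4.98 to 6.70 in Ptn_Delta. For single genes, Ptn_VP64 lay above all 12 other arrays in 0.318% of 12881, and no such share was taken for sums. Signals were summed before taking the log2, so the brightest markers weigh most. None of these markers was called in limma, with arrays averaged or in the unaveraged fit after patch correction. Of these markers 8 were well above background on at least 3 Ptn_VP64 arrays, against 6, 7 and 7 in the other groups, and the epidermal keratins Krt5 and Krt14 were on at most 1 array in EGFP and in Ptn_VP64. Summed over 10 fibroblast markers, the level was 1.70 to 2.98 in Ptn_VP64 and 0.94 to 2.34 in EGFP, 1.51 to 2.51 in Ptn_DEL and 1.87 to 3.07 in Ptn_Delta, so the groups overlapped. Well above background on at least 3 arrays were 6 of these markers in Ptn_VP64, against 3 in EGFP, 3 in Ptn_DEL and 4 in Ptn_Delta. The endothelial sum overlapped as well, at 2.67 to 3.35 in Ptn_VP64, 2.85 to 3.76 in EGFP, 2.32 to 3.83 in Ptn_DEL and 2.21 to 3.44 in Ptn_Delta. Of its 10 markers, 5 were well above background on at least 3 arrays in Ptn_VP64, 5 in EGFP, 5 in Ptn_DEL and 6 in Ptn_Delta. Cdh5 and Tie1 were well above background on at most 1 array in EGFP and in Ptn_VP64. Of the mast cell and macrophage markers, which would stand for receptor-bearing cells, 1 of 9 on the array was measured on at least 3 arrays in each group, and that was Kit, which ES cells also express. The summed ES cell markers were 8.26 to 9.22 in Ptn_VP64, 8.99 to 10.02 in EGFP, 8.90 to 9.79 in Ptn_DEL and 8.70 to 10.2 in Ptn_Delta. The sum over 10 extraembryonic endoderm markers was 5.36 to 6.54 in Ptn_VP64, 2.76 to 5.68 in EGFP, 5.18 to 5.88 in Ptn_DEL and 5.19 to 6.08 in Ptn_Delta, and both sums overlapped between groups. The part of the surface epithelium markers in the Il33 level was not tested.

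In limma with arrays averaged, 0 of 43 marker genes tested was called between Ptn_VP64 and EGFP, as were 0% of all genes. In the unaveraged fit after patch correction 3 of 35 were called higher, against 2.44% of all genes: Sox18, an endothelial transcription factor, at 1.91 ± 0.32 (SE, adjusted p 0.00797), Col4a1, a basement membrane collagen, at 2.15 ± 0.25 (adjusted p 0.000935), and Dab2, an endocytic adaptor of endoderm, at 1.89 ± 0.44 (adjusted p 0.0463). Epithelial keratins Krt8 and Krt18 differed by 4.04 ± 1.03 and 3.98 ± 0.95 there, with adjusted p 0.0684 and 0.0716.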

How the data were processed

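Each array's spot table was made by Agilent Feature Extraction 11.5.1.1 per the submitters' processing notes and the file headers. Per the file headers, the processed signal is an intensity after background subtraction and spatial detrending, and the raw median and the local background are intensity too. The authors' deposited series values are log2 and served as an alternative. From the processed signal, levels were computed relative to the 75th percentile. Spots with the uneven-spot or population-outlier mark were dropped, while a mark on the local background alone (Il33 in Ptn_Delta replicate 1) was not a reason to leave a spot out. Genes, 12881 in all, were those with a probe well above background on at least 4 arrays, and the probe of highest mean stood for each. Hybridisations that repeat a sample are not named, so arrays were averaged to 2 samples in each of 3 pairings, fitted with limma 3.58.1 in R 4.3.3 over all 4 groups (slide as a term where it does not cancel), and the largest p was adjusted by Benjamini-Hochberg and called under 0.05. Patch correction subtracted the local shift. Scripts were tested on simulated data.

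Named genes were Il33, Ptn, Il1rl1 and Il1rap, up to 4 members of each list with the smallest p between Ptn_VP64 and EGFP, any member called, the 2 nearest measured neighbours on each side, and the 8 genes most correlated with Il33. Dkk1, Cxcl10 and the cell type markers named singly (Krt5, Krt14, Krt8, Krt18, Cdh5, Tie1, Kit) fall outside this rule and were named after their values were seen. A gene that this rule names is not reported here. Members, lists and rules were chosen with earlier results of these data known. P-values measure only the spread between these samples, which may be technical. The number of arrays limits the precision.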

Additional observations from a re-analysis of the deposited data

Results flagged for a closer look

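Among 148 groups of 4 arrays over 37 named genes, 4 held an array that stood apart from the other 3 by more than Dixon's critical value, and chance gives about 1 in 20 groups. Cish, of the genes most like Il33, read -1.35 in EGFP replicate 1, the nearest other EGFP array being at -0.72. Cxcl10, an NF-kB target checked after its values were seen, read -4.07 in Ptn_VP64 replicate 2, with the nearest at -1.86. Irak3 read -0.18 in Ptn_DEL replicate 1, with the nearest at 2.26. Ptgs2 read -2.73 in Ptn_DEL replicate 2, the highest of its group, with the nearest at -3.89. No group of Il33 held such an array.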

How the results depend on the processing

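The direction of the Il33 excess of Ptn_VP64 was fixed by its selection on these same arrays, so its persistence in other settings supports nothing. Under the 11 alternatives to the main setting the size was 4.66 to 7.05 against EGFP, 4.58 to 5.94 against Ptn_DEL and 4.20 to 5.33 against Ptn_Delta. The low ends came with normexp background correction (4.66, 4.58 and 4.20), and slide 1 alone gave 5.71 against EGFP; the cause was not tested. Leaving out each replicate in turn gave 6.24 to 6.64, 5.29 to 5.69 and 4.72 to 5.18. No alternative brought a difference without Ptn_VP64 past the threshold. Those ranges were 0.08 to 1.38 for Ptn_DEL minus EGFP (0.62 to 1.13 without single replicates), 0.46 to 1.74 for Ptn_Delta minus EGFP (1.21 to 1.76) and -0.60 to -0.36 for Ptn_DEL minus Ptn_Delta (-0.70 to -0.25), with the lowest adjusted p at 0.149.

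The count of called genes in limma was 0 in the 3 comparisons with Ptn_VP64, with 494, 237 and 375 genes at an unadjusted p under 0.05. It was 0 to 0 without single replicates. Against EGFP, Ptn_DEL and Ptn_Delta it became 2, 1 and 1 after patch correction, 5, 1 and 4 with arrays unaveraged, and 355, 96 and 83 with both. Slide 2 alone called 1 against EGFP. The replicate number as a block called 47, 2 and 1, but the numbers were not taken to pair the samples, since the labels tie them to nothing and only 14 of 24 same-numbered pairs had a correlation over 0.1 (-0.15 to 0.40). In 14 of 24 the own number correlated best, a hint from the data and not the design; each number also has 1 slide and 1 slide row. Unaveraged and blocked fits count technical repeats as replicates, so those counts are too high by an unknown amount. Il33 was not well above background in EGFP, which limits its fold there to a bound that depends on the limit taken.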
